A study of Mus musculus with 5 samples.

Results

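The interferon response genes described here are the receptors, transcription factors and effector families of interferon signalling, read in the fat cells of wild-type mice. They were taken by symbol from the deposited expression table, with no use of their values: the type I and type II interferon receptor chains, the Stat and Irf factors of the pathway, and the symbols that begin with Ifi, Ifit, Ifitm, Oas, Gbp, Irgm or Isg, together with Mx1, Mx2, Rsad2, Bst2, Usp18, Igtp, Iigp1 and Ifih1. The rule found 76 genes of 24330 symbols, each with 1 row. The 3 RNA-seq libraries, replicates 1 to 3, came from primary adipocytes of the epididymal fat of C57BL/6 wild-type mice that were 17 weeks old. No treatment is named in the labels, and nothing there says that the libraries came from separate mice, so the spread given here may be technical. The 2 bisulfite libraries of the series, 1 from mice with Dnmt1 deleted in adipocytes and 1 from wild-type mice, were not analysed here, so all values are from a single genotype.

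Interferons are secreted proteins that warn cells of infection. Type I interferons signal through Ifnar1 and Ifnar2 to a complex with Stat2 and Irf9 that binds the interferon-stimulated response element (ISRE), and interferon gamma signals through Ifngr1 and Ifngr2 to factors that bind the gamma-activated site (GAS). The genes so switched on block viral entry, bind or cut viral RNA, attack vacuoles that hold microbes and present antigen. Many of them have a basal level without infection, and in fat they are read in adipocytes as well as in the macrophages and endothelial cells of the tissue.

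The sequences that these factors read were looked for in RefSeq promoter windows, which run from 250 bases before to 50 bases after a gene's start (GRCm38.p6). The ISRE core was searched as GAAANNGAAA on both strands, and the GAS core as TTCNNNGAA, which reads the same on both. A window was found for 56 of the 76 genes. An ISRE core stood in a window of 27 of these 56 genes, or 48.2%, against 1079 of 27025 genes with a window, or 3.99%. A GAS core stood in 17 of the 56, or 30.4%, against 9.55% of the 27025 genes. Both motifs were found in 8 of the 56 and neither in 20. A match describes letters and is not a shown binding site. The stretches below belong to genes with high levels within their families in these libraries, and capitals mark the ISRE core, or the GAS core in the case of Irf1.
Isg15, chr4:156200855-156200916, minus strand: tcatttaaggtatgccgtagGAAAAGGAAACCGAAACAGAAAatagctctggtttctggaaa
Bst2, chr8:71537567-71537622, minus strand: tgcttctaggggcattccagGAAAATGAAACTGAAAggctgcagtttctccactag
Irgm1, chr11:48871421-48871470, minus strand: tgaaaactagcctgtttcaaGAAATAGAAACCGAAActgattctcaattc
Gbp2, chr3:142620584-142620633, plus strand: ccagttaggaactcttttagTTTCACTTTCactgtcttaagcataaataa
Ifit3, chr19:34583353-34583436, plus strand: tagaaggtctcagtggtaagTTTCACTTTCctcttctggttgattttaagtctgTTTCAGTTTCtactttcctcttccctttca
Ifitm2, chr7:140955978-140956027, minus strand: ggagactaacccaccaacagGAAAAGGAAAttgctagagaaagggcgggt
Ifitm3, chr7:141010716-141010742, minus strand: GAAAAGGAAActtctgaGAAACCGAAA
Irf1, chr11:53769904-53769952, plus strand: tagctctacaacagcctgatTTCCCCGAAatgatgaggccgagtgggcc
In Isg15, 3 overlapping ISRE cores run from base -78 to base -57, counted from the gene's start. Bst2 and Irgm1 each carry 2 overlapping cores, at -130 to -115 and at -30 to -15. Ifit3 has 2 separate cores between -156 and -113. The pair in Ifitm3 lies after the start, from base 3 to base 29, whereas the single core of its neighbour Ifitm2 lies before it, at -46 to -37. The single GAS core of Irf1 spans -90 to -82, and no ISRE core was found in the windows of Irf1.

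By family, an ISRE core was found in a window of 5 of 5 guanylate-binding protein genes that had one, 5 of 6 Ifit genes, 4 of 8 Oas genes and 3 of 4 immunity-related GTPase genes, but in 1 of 8 Irf genes and 0 of 4 receptor genes. GAS cores were found in 2 of the 4 receptor genes, Ifnar1 and Ifnar2, and in 3 of the 8 Irf genes, which were Irf1, Irf2 and Irf8. They were also found in 2 of 5 guanylate-binding protein genes and 2 of 4 immunity-related GTPase genes. Among the Ifit genes the count was 1 of 6, and among the Oas genes 1 of 8. The median of the mean level was 12.9 FPKM over the 27 genes with an ISRE core and 9.99 FPKM over the 29 without, and 22 genes of each set were detected in every library. FPKM is a fragment count scaled to transcript length and library size, and FPKM 1 is the level from which a gene counts as detected.

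**Figure D1:**
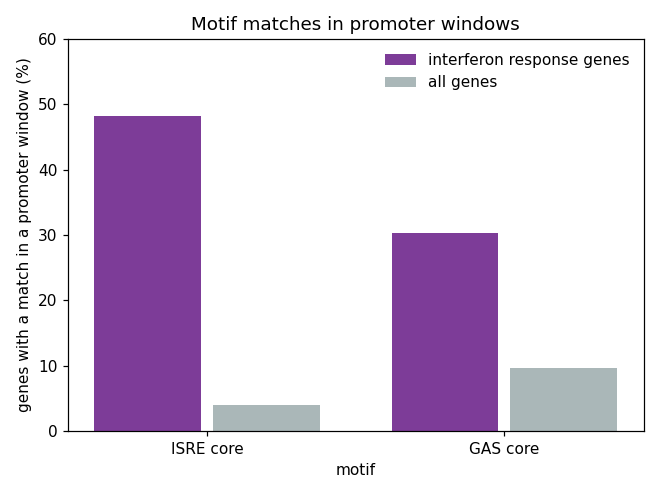
Share of genes (%) with an ISRE core or a GAS core in a RefSeq promoter window, for the interferon response genes (purple, 56 genes) and for all genes (grey, 27025 genes). The ISRE core was found for 48.2% and 3.99%, and the GAS core for 30.4% and 9.55%.

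Replicate 1 stood apart from the other libraries. Its adipocyte markers summed to 12818 FPKM, against 4227 and 4382 FPKM in replicates 2 and 3, and all 12 were detected in every library. Of the 12, 11 were highest in replicate 1, and Pparg, at 174, 194 and 164 FPKM, was not. Cfd alone stood at 6288, 2058 and 2194 FPKM. Its 8 testis germ cell markers summed to 1239 FPKM, against 22.5 and 10.0 FPKM. In such bulk samples fewer cells of a type and less RNA per cell cannot be told apart. Detection of the interferon response genes, the 2-fold count and pair orders that rest on this library are given with and without it. Most other counts rest on every library.

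Interferon response genes were expressed widely in the preparation, and a few of them were among its most abundant transcripts. Of the 76 genes, 57 were detected in every library, or 75.0%, against 45.5% of all symbols. Another 2, Gbp11 and Ifi44, were detected in some libraries, and 17 in none, of which Oas1e and Oas1h were listed at 0 in all 3. The median over the 76 genes was 3.25 ± 0.134 on the log2(FPKM + 0.1) scale, against -0.19 ± 0.541 over all symbols (SD, n = 3 libraries). Without replicate 1, 58 genes were detected in both remaining libraries and the median was 3.20 ± 0.145. The excess of that median over the median of all symbols was then 3.67 ± 0.187, against 3.44 ± 0.423 over the 3 libraries. The matching detection share of all symbols was not computed. A mean of FPKM 10 or more was reached by 37 genes and FPKM 100 or more by 8, which were Ifitm3, Ifitm2, Ifi27l2a, Irf1, Bst2, Ifi27, Ifngr1 and Ifi30. Without replicate 1 the mean of Ifi30 was 92.3 FPKM, below that threshold. By mean level, Ifitm3 ranked 56 and Ifitm2 ranked 70 among all 24330 symbols. Ifit3, the lowest of the 37 genes, ranked 5604, and Ifi30, the lowest of the 8, ranked 683. The genes together held 0.821%, 0.880% and 0.975% of the summed FPKM in replicates 1, 2 and 3, and Ifitm2 and Ifitm3 alone made up 33.7%, 46.4% and 50.1% of that part.

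**Figure D2:**
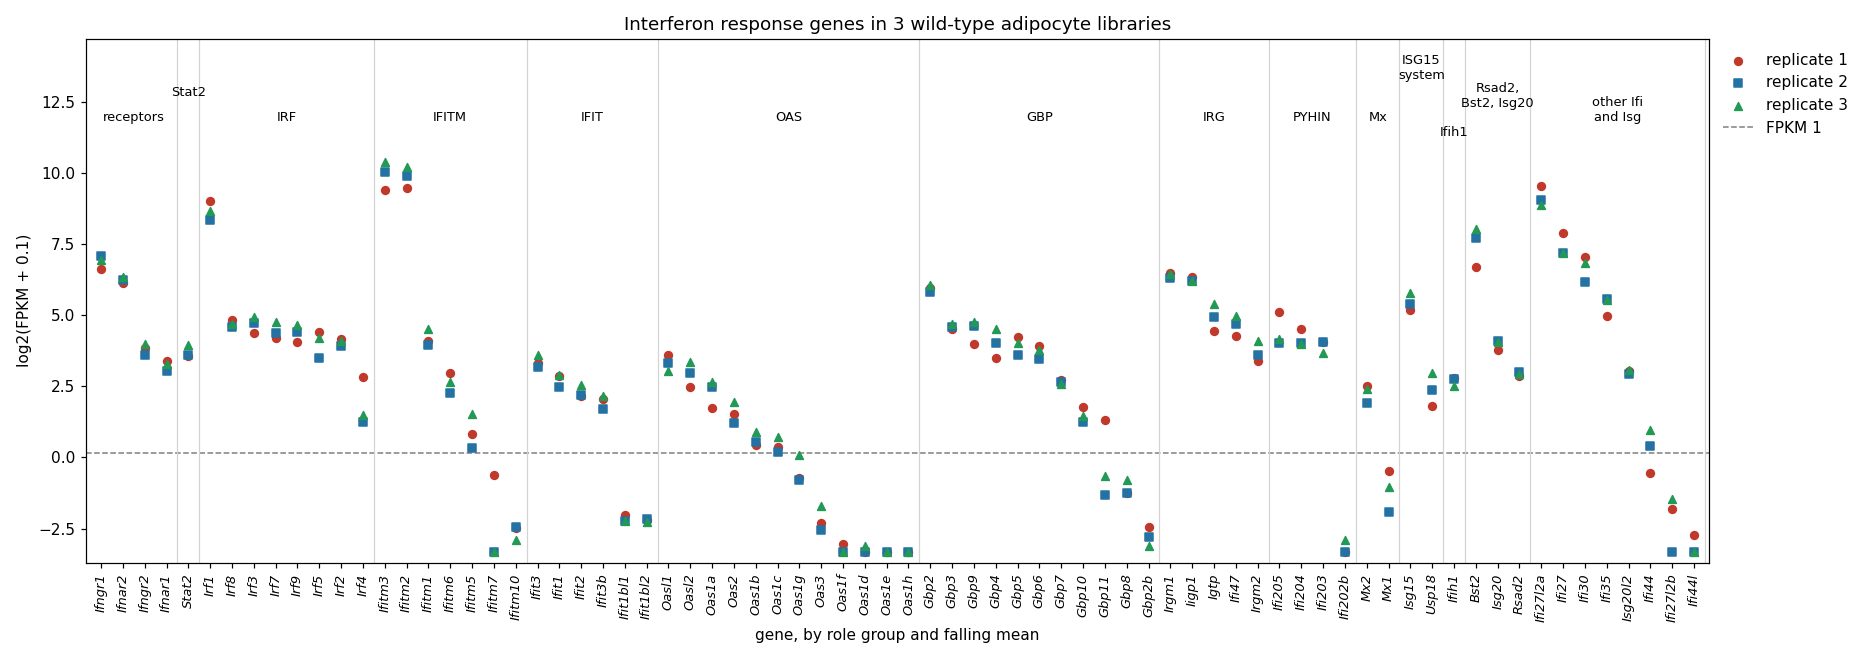
Level of 74 of the interferon response genes, as log2(FPKM + 0.1), in replicate 1 (red circles), replicate 2 (blue squares) and replicate 3 (green triangles), by role group and falling mean. The dashed line marks FPKM 1, and 56 of the genes drawn lie at or above it in every library.

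The interferon genes themselves, apart from Ifnb1, were nearly silent. Of 21 ligand genes, 16 had a listed value of 0 throughout and none reached FPKM 1 in all 3 libraries. The interferon beta gene Ifnb1 stood at 2.65, 0.708 and 0.694 FPKM in replicates 1, 2 and 3. It passed FPKM 1 in replicate 1 only. Ifng, which encodes interferon gamma, stood at 0.137, 0.0124 and 0.0516 FPKM, and Ifnab, Ifnk and Ifnz reached at most 0.0600, 0.0450 and 0.00892 FPKM. T and NK cells, the usual makers of interferon gamma, left little signal. None of their 10 marker genes reached FPKM 1 in every library, and the summed level of the list was 5.44, 2.52 and 6.50 FPKM.

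All 4 receptor chains were detected, and each receptor had a high and a low chain. Ifngr1, the ligand-binding chain for interferon gamma, stood at 98.8, 133 and 121 FPKM in replicates 1, 2 and 3. Its partner Ifngr2 stood at 14.4, 11.9 and 15.8 FPKM. Ifngr1 exceeded Ifngr2 in each library, by a log2 ratio of 3.06 ± 0.369, or 8.32-fold. Of the type I receptor, Ifnar2 was the high chain. Ifnar1 stood at 10.3, 8.06 and 9.51 FPKM, and Ifnar2 at 70.0, 74.8 and 81.2 FPKM. The log2 ratio of Ifnar1 over Ifnar2 was -3.01 ± 0.228, with no overlap between the chains. Ifngr1 also exceeded Ifnar1, by 3.65 ± 0.390 on the log2 scale. Of the receptor for lambda interferons, the specific chain Ifnlr1 stood at 0.0213, 0.0305 and 0.141 FPKM, while Il10rb, which is shared with the interleukin-10 receptor, stood at 52.1, 39.0 and 45.9 FPKM.

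Stat2, Irf9 and the receptor kinases, which carry the signal, were detected in every library, at differing levels. Of 10 receptor kinases and feedback genes, 10 were detected in every library. Among them Socs3, a feedback inhibitor of cytokine receptors, was highest at 467, 333 and 370.2 FPKM, followed by the kinase Jak1 at 49.1, 49.4 and 56.9 FPKM and the phosphatase Ptpn11 at 31.8, 28.8 and 33.1 FPKM. Stat2, which carries the type I signal, stood at 11.6, 11.9 and 15.2 FPKM. Its partner Irf9 stood at 16.5, 21.3 and 24.8 FPKM and was above Stat2 in each library. Both were highest in replicate 3.

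Among the Irf genes, Irf1 stood far above the others. Irf1, an early target of interferon gamma, reached 509.7, 319.8 and 407 FPKM and ranked 182 among all symbols. Its paralog Irf2, which can oppose it, stood at 17.9, 15.0 and 17.1 FPKM. The log2 ratio of Irf1 over Irf2 was 4.60 ± 0.211. Irf3, the factor that nucleic acid sensors activate, stood at 20.6, 26.3 and 30.3 FPKM. Irf7, its interferon-induced relative, stood at 18.1, 20.3 and 26.7 FPKM, and Irf3 exceeded it by 0.25 ± 0.107 on the log2 scale in each library. Both were lowest in replicate 1 and highest in replicate 3.

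The Irf factors known best from immune cells were read as well. Irf8, required for macrophage and dendritic cell development, stood at 28.2, 23.9 and 25.8 FPKM. Irf5, which drives inflammatory gene expression in macrophages, stood at 20.9, 11.1 and 18.1 FPKM and was lowest in replicate 2. Irf4 stood at 7.04, 2.29 and 2.68 FPKM, and the value of replicate 1 was 3.08-fold that of replicate 2. Irf4 is known from lymphocytes and macrophages and has also been described in adipocytes, where it acts on lipid handling. The log2 ratio of Irf8 over Irf4 was 1.99, 3.33 and 3.22 in replicates 1, 2 and 3. Irf9 and Irf5 had no common order, since Irf5 was higher in replicate 1 and Irf9 in the other libraries. Their log2 ratio, Irf9 over Irf5, was 0.35 ± 0.646. It was 0.70 ± 0.345 without replicate 1, with Irf9 higher in both libraries, and 0.057 ± 0.561 without replicate 2.

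Ifitm3 and Ifitm2, of a family of membrane proteins that hinder virus entry, had the highest mean levels of the interferon response genes. In replicate 1 they were exceeded by Ifi27l2a, described below. Ifitm3 stood at 667, 1030.0 and 1344 FPKM in replicates 1, 2 and 3. Ifitm2 stood at 713, 941 and 1188 FPKM. Both were lowest in replicate 1 and highest in replicate 3. The log2 ratio of Ifitm3 over Ifitm2 was -0.10, 0.13 and 0.18, so that their order changed between libraries. Without replicate 1, Ifitm3 was the higher in both libraries, by 0.15 ± 0.034. The 2 genes are neighbouring paralogs, and the labels do not say how fragments that match both were assigned. Ifitm1 stood at 17.0, 15.5 and 22.7 FPKM, far below its neighbours, and Ifitm3 exceeded it by 5.73 ± 0.402 on the log2 scale. Ifitm6 stood at 7.66, 4.75 and 6.17 FPKM. Ifitm5, known from bone-forming cells, stood at 1.66, 1.14 and 2.76 FPKM. Ifitm10 reached at most 0.0842 FPKM, and Ifitm7 had 0.544 FPKM in replicate 1 and was listed at 0 in the others.

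The cytosolic antiviral families that respond to type I interferon were low. Ifit3, whose family binds viral RNA, stood at 9.93, 8.87 and 12.1 FPKM, Ifit1 at 7.22, 5.42 and 7.36 FPKM and Ifit2 at 4.35, 4.47 and 5.69 FPKM. Ifit3 exceeded Ifit1 by a log2 ratio of 0.62 ± 0.146 in each library. The copy Ifit3b stood at 3.85 ± 0.606 FPKM, while Ifit1bl1 and Ifit1bl2 were near 0.125 and 0.117 FPKM, so 4 of 6 Ifit genes were detected. Of the 12 Oas genes, which encode synthetases of the signal that activates RNase L and their relatives, 6 were detected in every library. Oasl1 stood at 12.0, 9.93 and 8.07 FPKM and Oasl2 at 5.39, 7.63 and 10.0 FPKM, with opposite orders over the libraries. Their log2 ratio, Oasl2 over Oasl1, was accordingly -1.14, -0.38 and 0.31. Its mean was -0.40 over the 3 libraries, -0.033 without replicate 1, where the order still differed, and -0.76 without replicate 3. Oas1a stood at 3.22, 5.48 and 6.18 FPKM and Oas2 at 2.78, 2.20 and 3.73 FPKM. Oas1b and Oas1c were near FPKM 1, at 1.45 ± 0.254 and 1.25 ± 0.249. Oas3 stood at 0.127 ± 0.0734 FPKM and Oas1g at 0.650 ± 0.270 FPKM, and Oas1d and Oas1f were listed at 0 in 2 libraries each.

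Other effectors of the type I response spanned a wide range. Bst2, or tetherin, which holds budding virus at the cell surface, stood at 104, 209 and 259 FPKM and was 2.49-fold higher in replicate 3 than in replicate 1. Rsad2, or viperin, which makes a chain-terminating nucleotide, stood at 7.16, 7.99 and 7.53 FPKM, among the steadiest values of all. The log2 ratio of Bst2 over Rsad2 was 4.54 ± 0.636. The exonuclease gene Isg20 stood at 13.6, 17.0 and 16.4 FPKM. Isg15, a ubiquitin-like modifier, stood at 36.5, 41.4 and 55.1 FPKM. Usp18, which removes Isg15 from proteins and damps the type I receptor, stood at 3.37, 5.05 and 7.77 FPKM, and was 3.07 ± 0.298 log2 units below Isg15. Both had their lowest value in replicate 1. Mx2 stood at 5.56, 3.69 and 5.18 FPKM and Mx1 at 0.615, 0.167 and 0.386 FPKM, a log2 ratio of 3.42 ± 0.422 for Mx2 over Mx1. Mx1 is a defective gene in C57BL/6 and most other laboratory strains. Ifih1, the RNA sensor MDA5, stood at 6.77, 6.63 and 5.57 FPKM.

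GTPases that act on pathogen vacuoles and that interferon gamma induces were expressed across both of their families. Of 11 guanylate-binding protein genes, 8 were detected in every library. Gbp2 led them at 61.0, 56.6 and 66.8 FPKM, followed by Gbp3 at 22.9, 23.7 and 25.7 FPKM. The log2 ratio of Gbp2 over Gbp3 was 1.35 ± 0.0834, the narrowest spread of the pairs examined. Gbp9 stood at 15.9, 24.5 and 27.1 FPKM, and Gbp4, Gbp5 and Gbp6 had means of 16.6 ± 5.69, 15.4 ± 3.31 and 13.1 ± 2.12 FPKM. Gbp7 stood at 6.16 ± 0.288 FPKM and Gbp10 at 2.73 ± 0.527 FPKM. Gbp11 had the largest spread on the log2 scale among the genes with a mean of FPKM 1 or more, at 2.38, 0.299 and 0.536 FPKM, while Gbp8 and Gbp2b stayed below FPKM 1. The immunity-related GTPase genes were detected throughout, 5 of 5. Irgm1, a regulatory member, stood at 88.7, 79.1 and 85.8 FPKM. The effector gene Iigp1 stood at 80.0, 73.0 and 72.9 FPKM, and neither gene differed by more than 1.12-fold between libraries. Igtp, also a regulatory member, stood at 21.5, 30.8 and 41.9 FPKM, Ifi47 at 19.1, 25.7 and 31.2 FPKM, and Irgm2 at 10.2, 12.1 and 17.0 FPKM. These 3 were lowest in replicate 1 and highest in replicate 3. Irgm1 exceeded Irgm2 by 2.71 ± 0.386 on the log2 scale, and Igtp over Irgm1 gave a log2 ratio of -1.48 ± 0.515.

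The DNA-binding PYHIN genes and the remaining Ifi genes included several that were highest in replicate 1. Ifi205 stood at 34.1, 16.3 and 17.9 FPKM, and Ifi204 at 22.5, 16.2 and 15.6 FPKM, both highest in replicate 1. Ifi203 stood at 16.6, 16.6 and 12.5 FPKM and was lowest in replicate 3. Ifi202b was listed at 0 in replicates 1 and 2 and stood at 0.0324 FPKM in replicate 3. Ifi27l2a stood at 744, 527 and 462 FPKM and Ifi27 at 237, 144 and 146 FPKM. The rows of these 2 genes overlap in the table, so their values are uncertain. The rows of Gbp2, Ifi47 and Ifitm7 also overlap another row, of Mir6381, Olfr56 and 2900011O08Rik in turn. Ifi30, a lysosomal thiol reductase of antigen-presenting cells, stood at 131, 70.8 and 114 FPKM. Ifi35 stood at 30.8, 47.1 and 46.4 FPKM and was lowest in replicate 1. Isg20l2, which carries the name by its likeness to Isg20 and acts in ribosome processing, stood at 7.99 ± 0.470 FPKM. Ifi44 stood at 0.581, 1.23 and 1.85 FPKM, whereas Ifi44l and Ifi27l2b reached at most 0.0506 and 0.262 FPKM.

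Ratios of 18 pairs were tested by flipping signs over the libraries in every way (exact permutation, two-sided). For 15 pairs all 3 libraries gave the same sign, and the exact p was 0.25, the smallest the design allows, with a Benjamini-Hochberg value of 0.3 over the 18 pairs. No pair could therefore pass 0.05. Irf9 and Irf5, Ifitm3 and Ifitm2, and Oasl2 and Oasl1 changed order between libraries, and for them both the exact p and the adjusted value were 0.5.

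**Figure D3:**
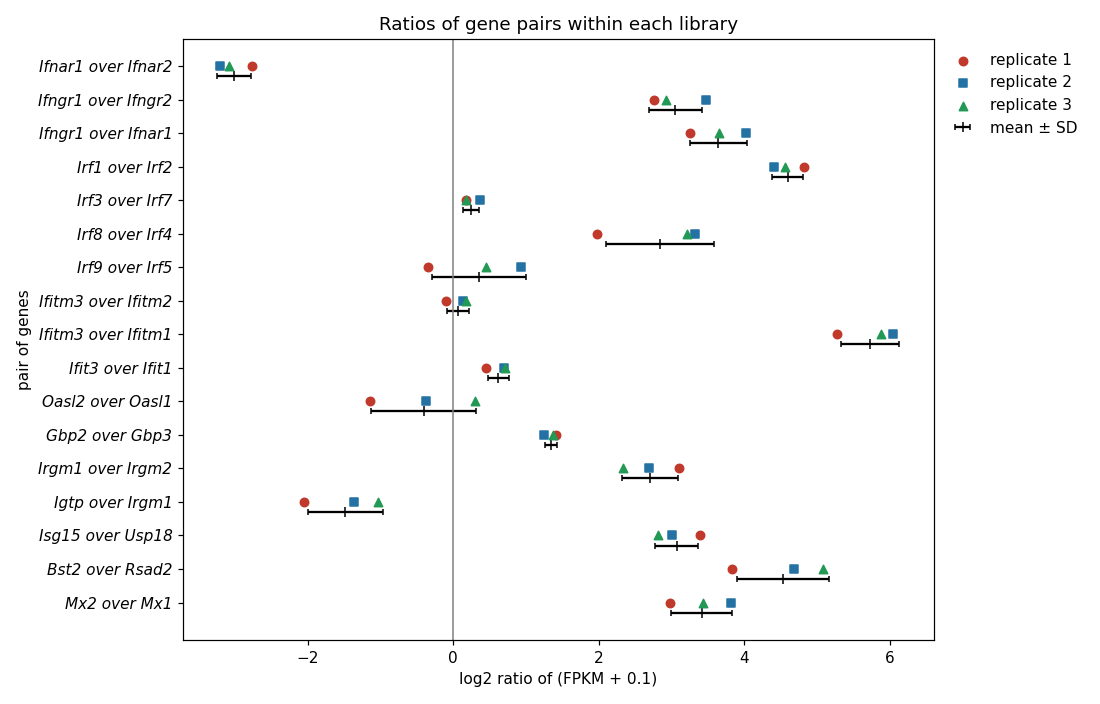
Log2 ratio of (FPKM + 0.1) between the genes of 17 pairs in replicates 1 to 3 (symbols), with the mean and SD over the 3 libraries in black below them. The ratio keeps 1 sign in every library for 14 of the pairs drawn, and crosses 0 for Irf9 over Irf5, Ifitm3 over Ifitm2 and Oasl2 over Oasl1.

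Many of these genes lie side by side in the genome, and close neighbours differed widely in level. Runs of at least 3 of the 76 genes, with gaps of at most 250 kb, numbered 8. On chromosome 7, from 140948962 to 141266424 in the table's mm10 coordinates, Ifitm1 at 18.4 ± 3.81 FPKM lies between Ifitm2 at 947 ± 237 FPKM and Ifitm3 at 1014 ± 339 FPKM. On chromosome 3, from 142496934 to 142638008, Gbp2 at 61.5 ± 5.15 FPKM is next to Gbp2b at 0.0474 ± 0.0342 FPKM. The other run of guanylate-binding protein genes, on chromosome 5 from 105014153 to 105346476, held 6 genes with means of 0.373 to 22.5 FPKM. The Oas run, on chromosome 5 from 120730333 to 120921647, held 10 genes of which 4 were detected in every library. The Ifit run, on chromosome 19 from 34550694 to 34650009, alternated between detected genes and the near-silent Ifit1bl1 and Ifit1bl2. Ifnar2, Ifnar1 and Ifngr2 share 191 kb of chromosome 16, from 91372783 to 91564007, with means of 75.3 ± 5.61, 9.28 ± 1.12 and 14.1 ± 1.96 FPKM. The remaining runs were the PYHIN genes on chromosome 1 and the Ifi27 genes on chromosome 12.

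Between libraries the genes varied about as much as other expressed genes, and not all in the same direction. Among the 59 with a mean of FPKM 1 or more, the median SD over libraries was 0.29 on the log2 scale, against 0.25 over all 11993 such genes. A difference of 2-fold or more between the highest and the lowest library was seen in 9 of the 59, or 15.3%, against 17.9% of the 11993. Without replicate 1, a single one of these 9, Ifitm5, still differed so, or 1.69% of the 59, against 3.49% of the 11993. The other 8, among them Bst2, Usp18, Irf4, Gbp11 and Ifi205, passed 2-fold through replicate 1. The count was 7 of the 59 without replicate 2, against 12.7% of the 11993, and 4 of the 59 without replicate 3, against 14.0%. Fewer libraries can lower this count but not raise it. The highest value was in replicate 3 for 32 of the 59, or 54.2%, against 42.5% of the 11993, in replicate 1 for 23, against 46.7%, and in replicate 2 for 4, against 10.8%. The lowest value was in replicate 1 for 26 of the 59, or 44.1%, against 32.8%. It was in replicate 2 for 26, against 48.7%, and in replicate 3 for 7, against 18.5%. After centring each library on its median, the median deviation of the 59 genes was -0.12, 0.03 and 0.11 in replicates 1, 2 and 3, against -0.03, 0.02 and 0.01 over the 11993. With no filter on low values, all 76 genes enter and each library is centred on the median of all symbols. That median was 0.37, -0.71 and -0.24 in replicates 1, 2 and 3. The median of the 76 genes was 3.35, 3.10 and 3.30. The unfiltered median deviation was -0.56 in replicate 1 and 0.42 in replicate 2. With the filter but without replicate 1, the median deviation was -0.062 in replicate 2 and 0.062 in replicate 3. With 2 libraries, deviations from their mean are equal and opposite, so these are a single value. The sign in replicate 2 thus rested on replicate 1. No test was run on these shares, since replicates of a single group allow none.

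Genes of the first kind were lowest in replicate 1 and highest in replicate 3, as were 22 of the 59, or 37.3%, against 25.0% of the 11993. Without replicate 1, 48 of the 59 were higher in replicate 3 than in replicate 2, or 81.4%, against 73.2% of the 11993. They included Bst2, Usp18, Ifitm2, Ifitm3, Igtp, Ifi47, Gbp4, Isg15, Irf7 and Ifi44. Genes of the second kind were highest in replicate 1, as were 23 of the 59, or 39.0%, against 46.7% of the 11993. The second kind included Gbp11, Irf4, Ifi205, Ifi27, Ifi27l2a, Irf5 and Irf1. Some genes hardly varied. Gbp7, Iigp1, Rsad2, Isg20l2, Irgm1, Gbp3, Ifnar2 and Irf8 had the smallest SDs on the log2 scale, from 0.07 to 0.12.

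**Figure D4:**
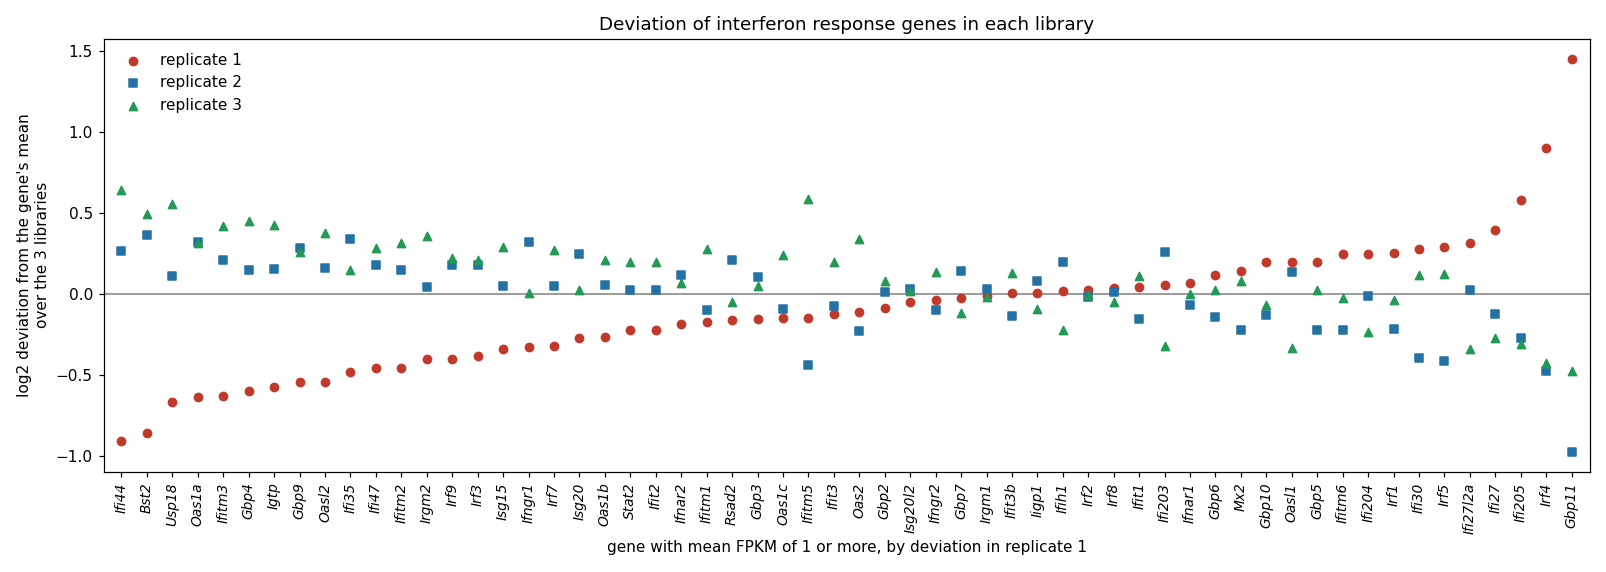
Deviation from the gene's own mean, for 58 genes with a mean of FPKM 1 or more over the libraries, in log2 units after centring each library on its median, ordered by the value in replicate 1. Ifi44, Bst2 and Usp18 stand at the low end for replicate 1, and Irf4 and Gbp11 at the high end.

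Other interferon-induced genes outside the 76 were led by B2m, the light chain of class I antigen-presenting molecules, at 1916, 2257 and 2358 FPKM. The chemokine Cxcl10, a classic product of both interferon types, stood at 491, 208 and 231 FPKM and Cxcl9 at 113, 110 and 86.0 FPKM. Of 40 measured genes in this list, 37 were detected in every library. The lowest value was in replicate 1 for 29 of the 38 with a mean of FPKM 1 or more, or 76.3%, against 32.8% of all 11993 such genes. They included the immunoproteasome gene Psmb8 at 63.3, 107 and 122 FPKM, whereas Cxcl10 was highest there. Nucleic acid sensing genes were all detected, 16 of 16, led by the exonuclease Trex1 at 58.5, 60.5 and 59.4 FPKM, the adaptor Tmem173 (STING) at 28.0, 45.3 and 54.0 FPKM and the nucleotide hydrolase Samhd1 at 38.3, 34.1 and 38.3 FPKM.

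**Figure D5:**
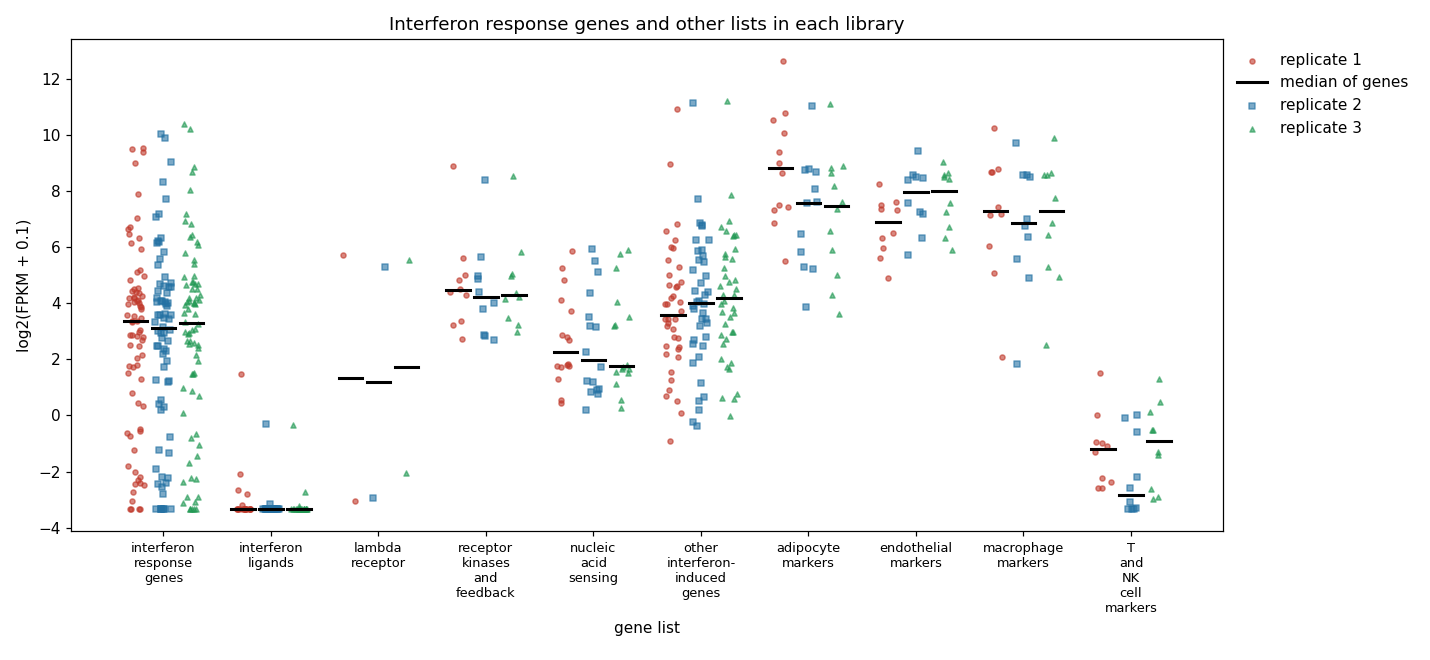
Level of each gene as log2(FPKM + 0.1) in replicates 1 to 3 (symbols) and the median over each list (black bars), for the 76 interferon response genes and for lists of the pathway and of cell types. Most ligand genes lie at or near the floor of the scale, with Ifnb1 above the others. The endothelial list is lowest in replicate 1.

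The preparation held RNA of several cell types, and the sums of their markers differed between libraries, not all in the same direction. Beside the adipocyte and germ cell sums of replicate 1 given above, all 10 endothelial markers were detected and lowest in replicate 1, and their sums were 1312, 2734 and 2589 FPKM in replicates 1, 2 and 3. The 10 macrophage markers summed to 3039, 2359 and 2585 FPKM, and 8 of them were highest in replicate 1. The 6 mesothelial markers summed to 39.5, 69.6 and 146 FPKM, and 5 of them were lowest in replicate 1. The 7 fibroblast markers, all detected, summed to 749, 835 and 1017 FPKM, and 5 of them were lowest there as well. Both sums were lowest in replicate 1 and highest in replicate 3, an order that 25.0% of the 11993 genes had. Wt1 among the mesothelial markers and Pdgfra, Dpt and Lum among the fibroblast markers did not have that order. B cell markers summed to 4.91, 5.17 and 10.2 FPKM. Of the 7 plasmacytoid dendritic cell markers, Bst2 and Tcf4 were the only ones detected in every library, Siglech stood at 3.47, 2.54 and 0.983 FPKM, and Klk1 was listed at 0 in all 3. The part of these cell types in the levels and differences of the interferon response genes was not tested.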

How the data were processed

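RNA-seq of 3 wild-type adipocyte libraries was used, and sample descriptions say which column holds which library. Values are FPKM as deposited by the authors. No source used here names the program that made them or says how strand was handled, so reads of a gene and of an overlapping or antisense partner may be mixed. The submitters' processing notes list the builds GRCm38 and mm10 and, among tools, featureCounts, Trim Galore 0.5.0 and Bismark 0.22.1, with no role. FPKM is a share of the RNA, so a few abundant genes lower all the others.

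Column sums were 504178 (replicate 1), 488721 (replicate 2) and 524092 FPKM (replicate 3). The smallest positive value was 6.1e-62, far under what 1 fragment is worth, and no common step in values under 0.15 FPKM linked replicate 2 to the others, so depth is unknown and counting intervals are not given. A listed 0 can be a failed estimate.

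For symbols with several rows the highest was kept, and 27 rows named by a calendar date were left out. Of the 76 genes, 47 had the same start and 43 the same end in RefSeq GRCm38.p6. Starts are counted from 1. Values were put on the log2(FPKM + 0.1) scale, which understates ratios near 0. The fixed rule named the 3 highest genes of each role group, the genes of the pairs and the 8 most variable genes. Of the 76 genes, 2 are counted in the totals but are not reported here by name, value or pair. The genes and lists were chosen with earlier results of these data known. Motif searches were added after the data were examined. Pair ratios were tested with an exact sign-flip permutation, and the steps were tested on simulated data. Scripts ran under Python 3.11.15 with pandas 2.3.3, numpy 2.4.6, matplotlib 3.10.9 and scipy 1.17.1. Alternatives covered pseudocount, thresholds, filters, TPM, summed rows and each library left out.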

Additional observations from a re-analysis of the deposited data

How the results depend on the processing

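The mean ratios of all 18 pairs kept their sign in 126 of 126 values over the alternatives run (a pseudocount of 1 or 0.01, TPM, summed rows and each library left out). For the 15 pairs with 1 sign in every library, none of these alternatives could have changed it. Summed rows could change no pair, since each gene has 1 row. The count therefore says little about stability, and the mean of Oasl2 over Oasl1 was only -0.033 without replicate 1. With a library left out, 57 to 58 of the 76 genes were detected. The median level of the 76 genes, 3.25 on the log2 scale, became 4.24 after rescaling to TPM, which changes the unit. It was 3.97 among genes with a mean of FPKM 1 or more. Its excess over the median of all symbols, 3.44, was 3.52 after rescaling to TPM and 2.54 with a pseudocount of 1. The excess was 0.76 among genes with a mean of FPKM 1 or more, where low genes are removed from both sides. The median deviation in replicate 1 was -0.56 and in replicate 2 was 0.42 with no filter on low values, against -0.12 and 0.03. Without the filter, all 76 genes enter and each library is centred on the median of all symbols. With the filter, the median deviation in replicate 2 was -0.062 without replicate 1 and 0.045 without replicate 3, so its sign rested on replicate 1. With motif matches limited to bases before the start, chosen after seeing the data, 25 and 14 genes had an ISRE or a GAS core. The count of genes that differed by 2-fold or more, 9 of 59, ranged from 1 without replicate 1 to 7 without replicate 2, also chosen after seeing the data. No paired analysis was possible because the 3 libraries form a single group. Depth is unknown, and precision is limited by the number of libraries.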
